A study of Homo sapiens with 6 samples.

Results

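The genes described here carry or answer signals of the transforming growth factor beta (TGF-beta) and bone morphogenetic protein (BMP) family. A list of 36 such genes was read in MDA-MB-231 cells, an established human breast cancer line. The list was drawn up with earlier results of these data known. Shares of members set beside those of all probe sets are therefore not independent of the data. Probe sets were chosen by gene name: each counted whose array annotation names a listed gene alone, by its current or older symbol. Of the 11960 genes that some probe set of the array names alone, 35 were on the list, on 62 of the array's 22283 probe sets, and BMPR1A was not analysed here. The treated cells were electroporated with siPTHrP, an siRNA against parathyroid hormone-related protein, and the control cells with siLuc, a control siRNA. Total RNA was taken after 3 days. Each of 3 independent experiments gave 1 siPTHrP and 1 siLuc RNA, so each group held 3 arrays and each difference was taken within its experiment. All arrays came from the same cell line, and the labels name a single siRNA for each group.

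Ligands of this family are made as larger precursors that proteases cut. TGF-beta is held in the matrix as a latent complex by latent TGF-beta binding proteins such as LTBP1. An active ligand joins type I and type II receptors, and the type I receptor phosphorylates SMAD2 and SMAD3 (TGF-beta and activins) or SMAD1 and SMAD5 (BMPs). These pair with SMAD4 and act on target genes in the nucleus, among them inhibitors that feed back on the pathway. In models of breast cancer in bone, TGF-beta released from the matrix is known to raise PTHrP production by the tumour cells.

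No member passed the test over all probe sets. In a limma model that took the experiment as a blocking factor, 0 of the 41 member probe sets kept by the signal filter had a Benjamini-Hochberg adjusted p under 0.05, where 0% of all 13329 kept probe sets did. At an unadjusted limma p under 0.05 there were 7 member probe sets (17.1%), against 12.1% of all kept probe sets. All 7 were higher with siPTHrP, where 6.77% of kept probe sets were higher and 5.36% lower at this threshold. They belonged to TGFB1, LTBP1, LTBP3, SMAD2, SMAD3, SMAD7 and KLF10. The siPTHrP and siLuc signals did not overlap for 13 of the 41 kept members, against 18.6% of all kept probe sets. The siPTHrP arrays were all above for 10 of these (24.4% of kept members, against 8.94% of all kept probe sets) and all below for 3 (7.32%, against 9.69%). Every log2 fold change here sets siPTHrP over siLuc, with 16 added to each signal before the log. The word signal means the deposited MAS5 intensity.

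Of the 7 genes, the 5 with no overlap between the groups (all but SMAD3 and KLF10) are shown with the 250 bases before their start, so that a reader can see what lies there. The first start that RefSeq lists for each gene on GRCh38.p14 was used, and the sequences run 5′ to 3′. Capitals mark CAGAC, the short element that SMAD proteins bind, and TGACGTCA, the cAMP response element, each searched on both strands, where CAGAC reads as GTCTG on the other strand and the cAMP element reads the same.
TGFB1 (chr19:41353923-41354172, minus strand): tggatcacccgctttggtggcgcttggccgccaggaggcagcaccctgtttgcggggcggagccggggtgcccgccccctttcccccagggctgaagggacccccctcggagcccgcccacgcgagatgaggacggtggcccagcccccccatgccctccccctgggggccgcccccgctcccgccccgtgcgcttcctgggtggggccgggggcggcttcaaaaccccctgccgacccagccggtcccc
LTBP1 (chr2:32946703-32946952, plus strand): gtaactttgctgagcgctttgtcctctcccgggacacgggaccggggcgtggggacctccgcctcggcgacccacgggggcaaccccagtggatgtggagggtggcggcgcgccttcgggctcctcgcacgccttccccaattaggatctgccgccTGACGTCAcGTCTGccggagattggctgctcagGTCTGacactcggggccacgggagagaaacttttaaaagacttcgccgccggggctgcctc
LTBP3 (chr11:65558360-65558609, minus strand): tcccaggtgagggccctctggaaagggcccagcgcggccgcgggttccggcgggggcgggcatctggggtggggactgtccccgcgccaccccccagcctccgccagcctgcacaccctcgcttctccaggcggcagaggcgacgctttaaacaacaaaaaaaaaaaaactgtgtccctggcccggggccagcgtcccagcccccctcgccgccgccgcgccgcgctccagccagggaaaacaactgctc
SMAD2 (chr18:47930873-47931122, minus strand): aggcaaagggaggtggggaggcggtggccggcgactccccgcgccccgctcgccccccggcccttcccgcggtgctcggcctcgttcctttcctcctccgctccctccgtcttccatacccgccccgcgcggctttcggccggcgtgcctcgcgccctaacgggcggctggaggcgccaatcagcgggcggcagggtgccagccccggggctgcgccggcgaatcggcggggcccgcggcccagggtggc
SMAD7 (chr18:48950966-48951215, minus strand): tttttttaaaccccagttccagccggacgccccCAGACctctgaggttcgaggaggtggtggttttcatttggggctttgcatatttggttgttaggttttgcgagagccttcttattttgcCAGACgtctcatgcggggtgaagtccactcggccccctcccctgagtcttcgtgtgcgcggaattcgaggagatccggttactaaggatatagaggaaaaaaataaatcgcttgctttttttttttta
The LTBP1 window held 2 CAGAC elements and 1 cAMP response element, and the first CAGAC lies 1 base after the cAMP element. The SMAD7 window held 2 CAGAC elements. Neither set of letters is in the windows of TGFB1, LTBP3 and SMAD2. Of 27305 such windows in the table, 37.8% held CAGAC and 1.77% held the cAMP element. Among the 33 members with a window, 12 held CAGAC and 2 the cAMP element. These matches describe the letters and say nothing of binding.

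The array of the siLuc RNA of experiment 1 was unlike the other arrays, and every difference below includes it unless stated. Its Spearman correlation with the other 5 arrays lay between 0.716 and 0.725, and those 5 correlated at 0.882 to 0.960 with each other. Its 18 hybridization control probe sets had a geometric mean signal of 273100, against 10840 to 41430 on the other 5. Among member probe sets, it alone carried signals with decimals. Its signal was more than 1 log2 unit below the lowest of the other 5 arrays in 9 of the 41 kept member probe sets and above the highest in 1. On the siPTHrP arrays of experiments 1, 2 and 3 this held for 0, 1 and 2 member probe sets, all on the low side, and on the other siLuc arrays for 0. Over all kept probe sets the share was 15.6% on this array and 0.503% to 2.04% on the other 5. Below, a value without that array comes from the other 5 arrays with no block. The part of this array in the differences was not tested in another way. PGR, the progesterone receptor, chosen after its values were seen, had 31, 9 and 31 on the siPTHrP arrays of experiments 1, 2 and 3, against 858, 50 and 23 on the siLuc arrays. Median signals ranged from 559 to 593 on siPTHrP arrays and from 652 to 887 on siLuc arrays. Markers known to be high in this line (VIM, CD44, AXL, CAV1 and MSN) summed to signals of 201985 to 270091 with siPTHrP and 227688 to 266968 with siLuc, and 12 of their 14 probe sets were kept. Markers known to be low in it (ESR1, PGR, CDH1, KRT19, EPCAM and GATA3) summed to 5110 to 5402 with siPTHrP and 4235 to 11099 with siLuc, with 4 of 17 kept. Of these, the epithelial keratin KRT19 had 1187, 1713 and 966 with siPTHrP, against 618, 726 and 750 with siLuc (log2 fold change 0.83, limma adjusted p = 0.429), and CDH1, the epithelial cadherin, was not kept. The other kept probe sets of these low markers lay below 0, ESR1 at -1.09 on 215551_at and -1.17 on 215552_s_at, and GATA3 at -0.24. Not all of them were dim here. GATA3 on 209604_s_at lay above the median signal of every array, and KRT19 did so on all but the siLuc array of experiment 1. EPCAM was not kept and had 342, 298 and 263 with siPTHrP, against 245, 39 and 41 with siLuc. Markers of leukocytes, endothelium and hepatocytes (PTPRC, PECAM1, CDH5 and ALB) summed to 1266 to 1599 with siPTHrP and 2622 to 6888 with siLuc, with 1 of 10 kept. That one, PECAM1 on 208982_at, had 791, 419 and 481 with siPTHrP, against 2013, 1056 and 1460 with siLuc (log2 fold change -1.40, limma unadjusted p = 0.00532, adjusted p = 0.328). Summed signals of the last group did not overlap, and the part of these markers in the members' values was not tested. The siRNA's own target transcript was not analysed here. With 3 arrays a group, precision is limited by their number.

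Among latent TGF-beta binding proteins, LTBP1, which tethers latent TGF-beta to the matrix, had the smallest p of all members. Of the 4 kept probe sets of this group, 3 were above 0 and 2 had an unadjusted p under 0.05, with a median of 0.71 on the log2 scale (0.59 without the siLuc array of experiment 1 and the block). The LTBP1 probe set 202729_s_at had signals of 7488, 7414 and 7035 on the siPTHrP arrays of experiments 1, 2 and 3, against 3770, 4726 and 4118 on the siLuc arrays. Every siPTHrP array lay above every siLuc array, and the siPTHrP arrays were close to each other. The mean was 7312 ± 243 with siPTHrP and 4205 ± 484 with siLuc (SD, n = 3 each), a 1.74-fold level (log2 fold change 0.80, SE 0.18; limma adjusted p = 0.321). The difference was 0.99, 0.65 and 0.77 in experiments 1, 2 and 3 on the log2 scale. Without the siLuc array of experiment 1 and without the block it was 0.73 (limma unadjusted p = 0.00206, adjusted p = 0.257). The other LTBP1 probe set, 202728_s_at, had 2643, 1726 and 2729 with siPTHrP against 1194, 2172 and 1303 with siLuc, so that experiment 2 ran the other way and the groups overlapped.

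LTBP3, which binds latent TGF-beta as LTBP1 does, had the largest fold change of the kept members. Its signals were 1382, 949 and 1048 with siPTHrP, against 101, 280 and 515 with siLuc. The groups did not overlap, the siLuc arrays were far apart, and 2 of the 3 siLuc signals lay under the filter level of about 376. The log2 fold change was 2.10 (SE 0.64, 95% interval 0.65 to 3.54, limma adjusted p = 0.345). By experiment it was 3.58 in the first, 1.70 in the next and 1.00 in the last. Leaving out the siLuc array of experiment 1 and the block gave 1.51 (limma unadjusted p = 0.0033). LTBP2, a relative found on microfibrils, had 857, 798 and 819 with siPTHrP against 536, 1307 and 1133 with siLuc. Its siPTHrP arrays lay inside the siLuc range (log2 fold change -0.17, limma adjusted p = 0.885, and -0.55 without the siLuc array of experiment 1).

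The ligands were split, with 4 of 8 kept probe sets above 0 and 1 at an unadjusted p under 0.05. Their median difference was 0.81 in experiment 1, -0.35 in experiment 2 and -0.26 in experiment 3. TGFB1 itself gave opposite values on its 2 probe sets. The bright one, 203085_s_at, had 5010, 4576 and 5245 with siPTHrP, against 2208, 4267 and 3405 with siLuc. The siPTHrP arrays were all above the siLuc arrays, by a narrow margin in experiment 2. The means were 4944 ± 339 with siPTHrP and 3293 ± 1034 with siLuc (SD, n = 3 each), and the log2 fold change stood at 0.63 ± 0.24 (SE; limma adjusted p = 0.392). Without the siLuc array of experiment 1 and without the block it was 0.37 (limma unadjusted p = 0.0783). The dim one, 203084_at, did not pass the filter. It had 110, 59 and 165 with siPTHrP against 1395, 167 and 584 with siLuc, all siPTHrP arrays below. With no filter its log2 fold change was -2.17 (SE 0.79, limma unadjusted p = 0.0199, adjusted p = 0.415).

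TGFB2 ran lower with siPTHrP on 2 of its 3 kept probe sets. The probe set 220406_at had 479, 335 and 242 with siPTHrP, against 857.5, 628 and 699 with siLuc. The groups did not overlap, and 2 siPTHrP signals lay under the filter level (log2 fold change -1.06, SE 0.56, 95% interval -2.32 to 0.21, limma adjusted p = 0.458). The probe set 209908_s_at had 336, 301 and 220 with siPTHrP, against 608, 438 and 585 with siLuc, again with no overlap (log2 fold change -0.90, limma adjusted p = 0.557). The remaining one, 220407_s_at, had 783, 704 and 178 with siPTHrP against 146, 871 and 771 with siLuc, with experiments pointing both ways (-0.007, and -0.80 without the siLuc array of experiment 1). Without that array 220406_at gave -0.93 and 209908_s_at did not pass the filter. A further TGFB2 probe set, 209909_s_at, was not kept. It had 288, 209 and 409 with siPTHrP against 1402, 147 and 123 with siLuc. There siPTHrP was lower in experiment 1 and higher in experiments 2 and 3. INHBB, an activin subunit, had 719, 647 and 736 with siPTHrP, against 523, 528 and 456 with siLuc. Its groups did not overlap (log2 fold change 0.47, SE 0.50, limma adjusted p = 0.693). INHBA, another activin subunit, overlapped between the groups at a log2 fold change of 0.37, which turned to -0.22 without the siLuc array of experiment 1. BMP2, a BMP ligand, overlapped at 0.14 and -0.05 on its 2 probe sets, and these turned to -0.51 and 0.23 without that array. BMP4 had signals of at most 111 with siPTHrP and 152 with siLuc and was not kept.

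**Figure D1:**
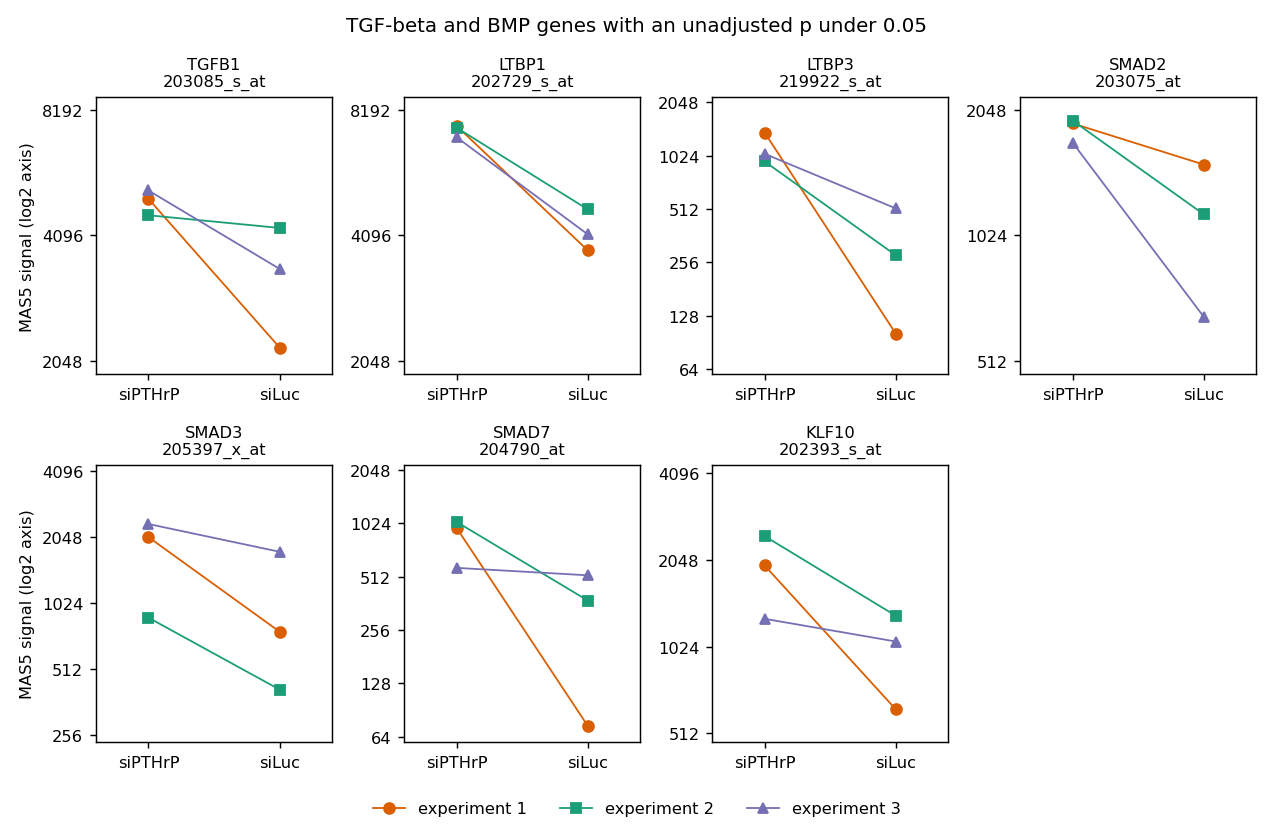
MAS5 signal (log2 axis) on each array for the 7 member probe sets with an unadjusted limma p under 0.05, siPTHrP on the left and siLuc on the right of each panel, with a line joining the arrays of 1 experiment. All 7 slope the same way in each experiment, the siLuc array of experiment 1 is the lowest point for TGFB1, LTBP1, LTBP3, SMAD7 and KLF10, and the siPTHrP arrays of LTBP1 lie between 7035 and 7488.

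The receptors showed no common direction, with 5 of 8 kept probe sets above 0, a median of 0.006 on the log2 scale and 0 at an unadjusted p under 0.05. TGFBR2, the type II TGF-beta receptor, was nearly level on 208944_at, with 11266, 10205 and 11890 with siPTHrP, against 12111, 11442 and 12574 with siLuc. Each experiment lay slightly lower with siPTHrP, and the groups overlapped. The log2 fold change was -0.12 (95% interval -0.47 to 0.24, limma adjusted p = 0.759), but 0.21 when each array was centred on its median. The other TGFBR2 probe set, 207334_s_at, had 1494, 525 and 1514 with siPTHrP, against 1490.5, 1157 and 2224 with siLuc. Those groups overlapped (log2 fold change -0.55, limma adjusted p = 0.507, and -0.59 without the siLuc array of experiment 1). BMPR2, the type II BMP receptor, had 849, 794 and 895 with siPTHrP, against 265, 584 and 266 with siLuc on 209920_at. Of these, the siLuc signals of experiments 1 and 3 lay under the filter level. The groups did not overlap (log2 fold change 1.25, SE 0.56, limma unadjusted p = 0.0506, adjusted p = 0.410), and without the siLuc array of experiment 1 and the block the value was 1.07 (unadjusted p = 0.0299). Its other probe set, 210214_s_at, gave -0.36, with 864, 704 and 744 with siPTHrP against 2062, 977 and 477 with siLuc, and it turned to 0.16 without that array. TGFBR1, the type I TGF-beta receptor, had 1355, 711 and 792 with siPTHrP, against 195, 537 and 878 with siLuc. Most of that difference lay in experiment 1, at 2.70 on the log2 scale, with 0.39 and -0.15 in experiments 2 and 3. The TGFBR1 value was 0.40 without the siLuc array of experiment 1. ACVR1, a type I receptor for BMPs, stood at 0.004, and at 0.25 without that array. The co-receptor ENG (endoglin) stood at 0.45 and 0.008 on its 2 probe sets, and at -0.07 and 0.07 without it. TGFBR3, also a listed receptor, had no kept probe set.

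The SMADs that carry the signal had 8 of 11 kept probe sets above 0 and 2 at an unadjusted p under 0.05. Their median stood at 0.34 on the log2 scale, and at 0.18 without the siLuc array of experiment 1 and the block. SMAD2 was above 0 on all 3 of its kept probe sets. The probe set 203075_at had 1897, 1927 and 1706 with siPTHrP, against 1512, 1149 and 653 with siLuc. No siLuc array reached a siPTHrP array (log2 fold change 0.81, SE 0.33, limma adjusted p = 0.402). Without the siLuc array of experiment 1 and without the block its log2 fold change was 1.07 (limma unadjusted p = 0.00514). The brighter 203076_s_at had 3508, 3438 and 3705 with siPTHrP, against 2238, 2922 and 3338 with siLuc, a smaller difference (0.34, limma adjusted p = 0.512, and 0.18 without that array) with no overlap. The dimmest, 203077_s_at, had 686, 1037 and 690 with siPTHrP against 77.3, 818 and 596 with siLuc. Its log2 fold change was 1.15 with the siLuc array of experiment 1 and 0.17 without that array and the block.

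SMAD3, the other SMAD of TGF-beta and activins, differed by probe set. The probe set 205397_x_at had 2055, 882 and 2358 with siPTHrP, against 760, 414 and 1761 with siLuc. Signals moved together within an experiment, so that the groups overlapped while each experiment was higher with siPTHrP (log2 fold change 0.97, SE 0.36, limma adjusted p = 0.383). Without the block its unadjusted limma p was 0.111. The brightest probe set, 218284_at, had 3981, 3698 and 4339 with siPTHrP, against 5317, 3761 and 2931 with siLuc. There the groups overlapped (log2 fold change 0.04, 95% interval -0.48 to 0.57, limma adjusted p = 0.952). This probe set gave 0.27 without the siLuc array of experiment 1. The remaining SMAD3 probe sets gave 0.55 and -0.03, and 0.10 and 0.09 without that array. For the BMP side, SMAD1 stood at 0.71 on 210993_s_at, and at 0.20 without that array. SMAD5 stood at -0.77 and -0.37 on its 2 probe sets, and at -0.77 and -0.26 without it. SMAD5 on 205187_at had 677, 666 and 198 with siPTHrP, against 774, 691 and 881 with siLuc, where only experiment 3 showed more than a small gap. SMAD4, the shared partner, stood at 0.33 on its kept probe set.

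Inhibitors of the pathway had 4 of 6 kept probe sets above 0 and 1 at an unadjusted p under 0.05, that of SMAD7, which blocks the type I receptor. Their median difference was 0.54, 0.26 and -0.69 in experiments 1, 2 and 3. The signals of SMAD7 were 968, 1046 and 575 with siPTHrP, against 73.7, 376 and 522 with siLuc. The groups did not overlap, but the arrays of experiment 3 were nearly level. The log2 fold change was 1.68 (SE 0.73, 95% interval 0.022 to 3.33, limma adjusted p = 0.410). By experiment it stood at 3.46, 1.44 and 0.14. It was 0.89 without the siLuc array of experiment 1 and the block (limma unadjusted p = 0.0521). SKI, a co-repressor of SMADs, was lower in all 3 experiments on 204270_at, with 513, 258 and 120 with siPTHrP against 957, 601 and 319 with siLuc. The groups overlapped, since both arrays of experiment 3 were the dimmest of their group (log2 fold change -1.12, SE 0.65, limma adjusted p = 0.490). SMURF2, a ubiquitin ligase that acts on receptors and SMADs, had 6743, 6391 and 6446 with siPTHrP, against 5350, 6379 and 4326 with siLuc. All siPTHrP arrays were above, though nearly level with siLuc in experiment 2 (log2 fold change 0.30, limma adjusted p = 0.507). The co-repressor TGIF1 stood at 0.13 and the decoy receptor BAMBI at 0.51, with overlap, and both turned below 0 without the siLuc array of experiment 1, at -0.11 and -0.16. The inhibitory SMAD6 stood at -0.09, and neither SMAD6 nor SKI passed the filter without that array. No probe set of SKIL, a relative of SKI, was kept.

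Induced genes of the list were thinly measured, with 4 kept probe sets for 3 of 8 genes, all 4 above 0 and 1 at an unadjusted p under 0.05. Their median was 0.89 on the log2 scale, and 0.42 without the siLuc array of experiment 1 and the block. KLF10, first known as a TGF-beta inducible early gene, had 1962, 2482 and 1280 with siPTHrP, against 620, 1311 and 1067 with siLuc. Each experiment was higher with siPTHrP, and the groups overlapped (log2 fold change 0.94, SE 0.36, limma adjusted p = 0.392). It was 0.63 without the siLuc array of experiment 1 and the block (limma unadjusted p = 0.0716). ID1, a helix-loop-helix inhibitor and classic BMP target, had 1061, 1313 and 1004 with siPTHrP, against 187, 886 and 1122 with siLuc. Apart from the low siLuc array of experiment 1 the signals lay within 1 range in both groups (log2 fold change 0.94, SE 0.54, limma adjusted p = 0.487), and without that array and the block the value was 0.16. ID4, its relative, had 747, 967 and 676 with siPTHrP against 527, 397 and 391 with siLuc on 209291_at, with no overlap (0.84, SE 0.51, limma adjusted p = 0.502), but 0.11 on 209293_x_at. ID2, ID3, TGFBI, PMEPA1 and CDKN2B, the last a cyclin-dependent kinase inhibitor, had no kept probe set. CDKN2B had 23, 18 and 149 with siPTHrP against 1619, 27 and 105 with siLuc, where the only bright array was the siLuc array of experiment 1. TGFBI, a matrix protein, had 899, 457 and 80 with siPTHrP against 293, 316 and 142 with siLuc, with experiments pointing both ways. The other pathway genes described below include more genes that answer the signal, and their kept probe sets lay on both sides of 0. CCN2 stood at 0.10, CDKN1A at 0.07, SNAI2 at 0.11, JUNB at 0.76 and IGFBP3 at 0.46 and 0.84. TAGLN stood at -0.34, COL1A1 at -1.86 and -0.22, and FN1 from -0.72 to 0.47 over its kept probe sets. None of these had an unadjusted limma p under 0.05, and the largest changed sign between experiments. JUNB stood at 2.26, -0.82 and 0.83 in experiments 1, 2 and 3, and IGFBP3 on 212143_s_at at 2.59, -0.22 and 0.14. COL1A1 on 202312_s_at stood at -4.09, -1.78 and 0.28. Its siPTHrP signals of experiments 1 and 2 (76 and 129) lay under the filter level.

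**Figure D2:**
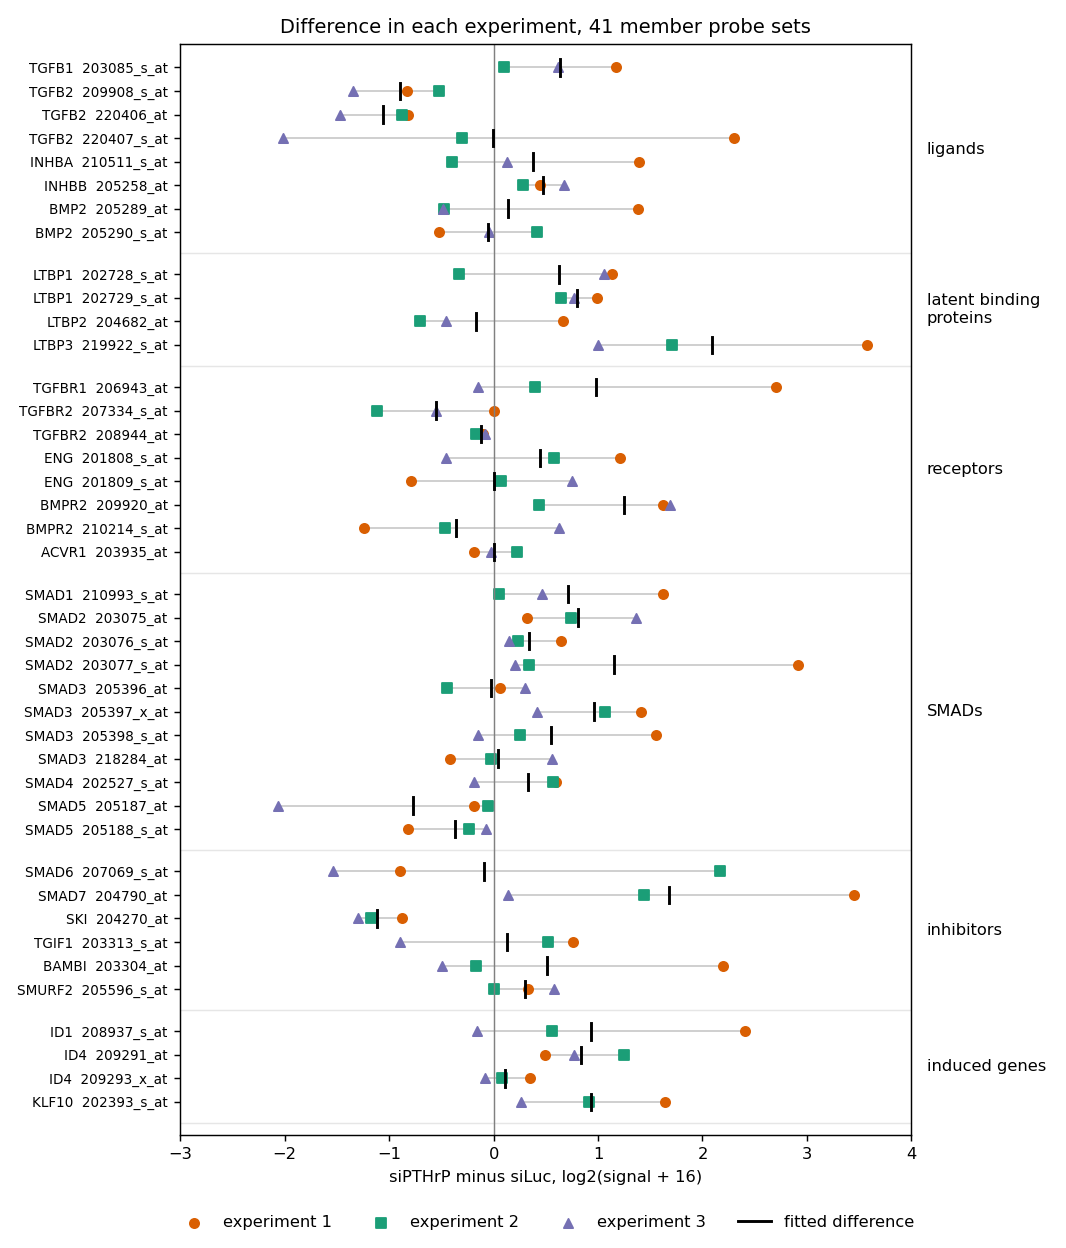
Difference of siPTHrP minus siLuc on the log2(signal + 16) scale in each experiment (coloured points) and as fitted (black bar) for the 41 kept member probe sets, grouped by role. Experiment 1 lies farthest to the right for LTBP3, SMAD7, TGFBR1, ID1 and BAMBI, while TGFB2 on 2 probe sets and SKI lie left of 0 in all 3 experiments.

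As a group the members leaned higher with siPTHrP, and the lean differed between experiments. Of the 41 kept probe sets 28 (68.3%) were above 0, and their median log2 fold change was 0.33, against 52.5% and a median of 0.030 for all kept probe sets. The members' median was 0.64, 0.10 and -0.024 in experiments 1, 2 and 3, and that of all kept probe sets was 0.082, -0.037 and -0.017. With each array centred on its median, 34 members were above 0 and 7 below, in place of 28 and 13, with a median of 0.65, while 74% of all kept probe sets were above 0 and their median moved to 0.36. The sign was the same in all 3 experiments for 20 members (48.8%), against 38.1% of all kept probe sets. Probe sets of a gene share their transcript: of 10 genes with several kept probe sets, 7 had the same sign on all of them and 3 did not.

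The filter, which asked for a mean log2 signal over all arrays, shaped these counts. Of the kept members 5 had a siLuc mean under its level (ENG on 201808_s_at, SMAD2 on 203077_s_at, SMAD7, BMPR2 on 209920_at and LTBP3), and 4 had a siPTHrP mean under it (SKI, SMAD6 and 2 of TGFB2). Such probe sets could pass only with a difference between the groups. With no filter, 37 of 62 member probe sets were above 0 with a median of 0.13, against a median of -0.16 for all 22215. Of the 62, 9 (14.5%) had an unadjusted limma p under 0.05 (8 higher, 1 lower), against 11.3% of all. Among the 21 that the filter left out, the groups did not overlap for 4, with siPTHrP above for ID4 on 209292_at and below for TGFB1 on 203084_at, INHBA on 204926_at and ID2 on 201566_x_at. Of all 8886 probe sets left out, the siPTHrP arrays were all above in 2.09% and all below in 17%.

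Without the siLuc array of experiment 1 and without the block, 5 of 38 kept members (13.2%) had an unadjusted limma p under 0.05. The share of all kept probe sets was 12.6% in either direction. All 5 members were higher with siPTHrP. These were LTBP1, LTBP3 and SMAD2, which were also among the 7, with BMPR2 and ID4. The members' median log2 fold change was then 0.19, against -0.025 for all kept probe sets. Without both arrays of experiment 1, 4 members were higher and 1 lower at this threshold (13.2%), against 13.8% of all kept probe sets in either direction. The higher ones were LTBP1, LTBP3, SMAD2 and SMAD3, and the lower one was TGFBR2 on 207334_s_at (log2 fold change -0.83, limma unadjusted p = 0.0183).

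**Figure D3:**
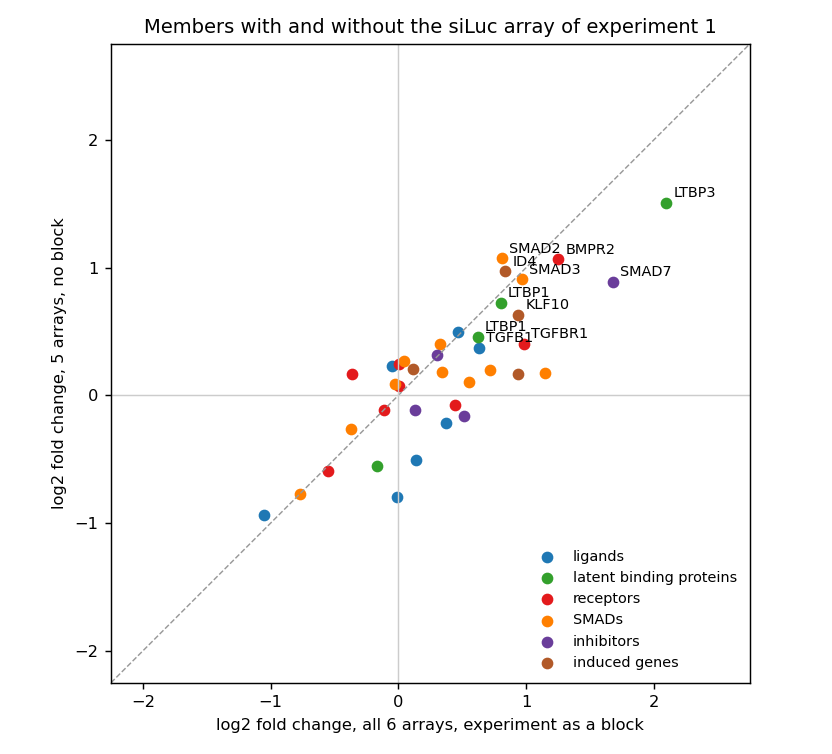
Log2 fold change (siPTHrP over siLuc) of the 38 member probe sets kept in both analyses, with all 6 arrays and the experiment as a block (horizontal axis) and with the siLuc array of experiment 1 left out and no block (vertical axis), coloured by role. The dashed line marks equal values, 30 of 38 keep their sign, and SMAD7 moves to 0.89 from 1.68 while LTBP1 stays near the line at 0.73 and 0.80.

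Other genes of the pathway, a list of 58 with 54 found on the array, lay below 0 more often than above as scaled by the authors, and above 0 more often with median centring. Of their 68 kept probe sets 29 were above 0, their median log2 fold change was -0.15, and 6 (8.82%) had an unadjusted limma p under 0.05, against 12.1% of all kept probe sets. Of the 6, 5 were lower and 1 was higher with siPTHrP, and 0 passed after adjustment. Among the 5, BMP8B had every siPTHrP signal under the filter level of about 376, so only its siLuc signals let it pass. With each array centred on its median, 45 of the 68 were above 0 with a median of 0.18, against 0.36 for all kept probe sets. There 7 had an unadjusted limma p under 0.05, 5 higher and 2 lower, the lower ones being FURIN and BMP7. With that centring ZFYVE9 on 204893_s_at stood at -0.39, DCN at -1.05 and BMP8B at -1.32 (unadjusted p = 0.274, 0.0931 and 0.0552). FURIN, the convertase that cleaves the TGF-beta precursor, had 1218, 991 and 2036 with siPTHrP, against 3460, 1755 and 4309 with siLuc. Each experiment was lower with siPTHrP, though the groups overlapped (log2 fold change -1.13, SE 0.26, limma adjusted p = 0.321). Without the siLuc array of experiment 1 and the block it was -1.02 (limma unadjusted p = 0.0373).

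ZFYVE9, known as SARA, which brings SMAD2 and SMAD3 to the receptor, had 1367, 1269 and 1548 with siPTHrP on 204893_s_at, against 1753, 2554 and 2704 with siLuc. The groups did not overlap (log2 fold change -0.72, SE 0.28, limma adjusted p = 0.393), and its other probe set gave -1.19. On that other probe set the siPTHrP signals of experiments 2 and 3 (326 and 119) lay under the filter level. BMP7, a BMP ligand, had 869, 710 and 1245 with siPTHrP on 211260_at, against 4183, 1336 and 2129 with siLuc. There was no overlap, with the siLuc array of experiment 1 highest (log2 fold change -1.30, limma adjusted p = 0.328, and -0.87 without that array and the block). The other kept BMP7 probe set, 211259_s_at, had 181, 607 and 926 with siPTHrP against 2216, 154 and 1082 with siLuc. Those groups overlapped, and experiment 2 ran the other way (log2 fold change -0.62, limma adjusted p = 0.775). BMP8B, another BMP ligand, stood at -1.65 and decorin (DCN), a proteoglycan that binds TGF-beta, at -1.37. BMP8B had 281, 249 and 254 with siPTHrP, against 2001, 452 and 682 with siLuc, and it did not pass the filter without the siLuc array of experiment 1. DCN had 802, 728 and 177 with siPTHrP, against 1872, 819 and 1277 with siLuc. Neither pair of groups overlapped, and the siLuc array of experiment 1 was the brightest for both genes. Without that array DCN stood at -1.09 (limma unadjusted p = 0.114), and without experiment 3 at -0.69 (0.259). BMP8B stood at -1.10 without experiment 1 (limma unadjusted p = 0.138). SPHK1, a sphingosine kinase, was the gene that was higher, with 2623, 2782 and 3308 with siPTHrP against 1189, 1762 and 2333 with siLuc. No siLuc array reached a siPTHrP array (log2 fold change 0.76, SE 0.25, limma adjusted p = 0.360). Without the siLuc array of experiment 1 and the block SPHK1 stood at 0.51 (limma unadjusted p = 0.0468).

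**Figure D4:**
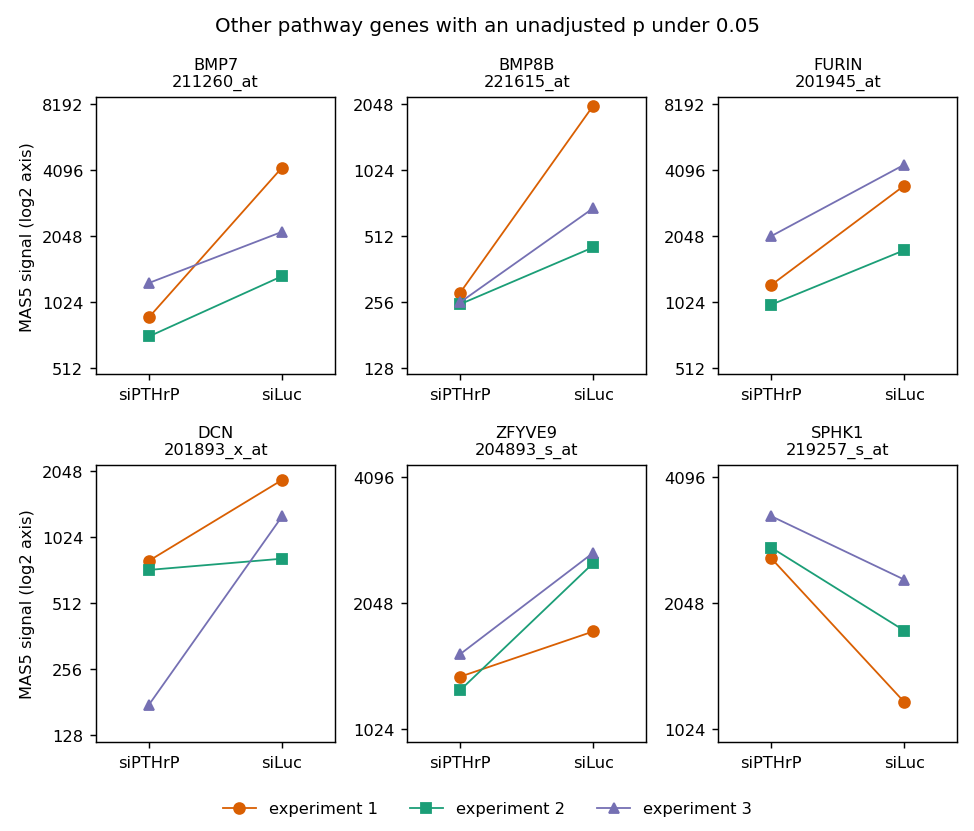
MAS5 signal (log2 axis) on each array for the 6 other pathway probe sets with an unadjusted limma p under 0.05, siPTHrP on the left and siLuc on the right, with a line joining the arrays of 1 experiment. FURIN, ZFYVE9, BMP7, BMP8B and DCN lie lower with siPTHrP in each experiment, and SPHK1 lies higher, at 2623 to 3308 with siPTHrP.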

How the data were processed

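RNeasy total RNA of 6 MDA-MB-231 samples was biotin-labelled and read on Affymetrix human genome type A arrays, as the labels state. The authors deposited linear MAS5 intensities, per the submitters' processing notes, with the MAS5 settings not given in the sources used here. Trimmed means (2% at each end) lay between 1500.4 and 1500.6, so the deposited scaling was kept. MAS5 subtracts mismatch signal, which makes dim probe sets noisy.

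The members and lists were chosen with earlier results of these data known. The unnumbered siLuc sample became experiment 1, the only number left, and the sample titled siLuc 3, whose description carries number 2, followed its title. The design text pairs RNAs by experiment, so the experiment was a block. Deviations from group means correlated at -0.0124, 0.157 and 0.157 for same-experiment pairs, and at -0.206 to 0.132 for the others.

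In R 4.3.3 with limma 3.58.1, 68 control probe sets were left out and the 13329 at or above the 40th percentile of mean log2(intensity + 16), 8.614, were kept. lmFit and eBayes with an intensity trend (2 residual degrees of freedom, prior 7.17) gave two-sided p-values with Benjamini-Hochberg adjustment at 0.05. A run on simulated data checked only that median fold changes were recovered. Its noise was independent between arrays, with no experiment effect and no unlike array, so it does not check the p-values. The offset of 16 shrinks differences of dim probe sets. Gene names came from the platform annotation, with symbols updated through Entrez identifiers for 19059 of 19071 with 1 gene. The 1043 probe sets with several genes and 2169 with none were not named. The labels do not say whether the experiments used separate cell stocks, so the p-values hold for these experiments only. Each SE and p-value is moderated. It draws on the spread of a probe set between experiments and on that of other probe sets of like signal. SKI on 204270_at had an unadjusted limma p of 0.121 with the trend and 0.00713 without it.

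Full values were given for kept member probe sets with an unadjusted p under 0.05, or a log2 fold change of at least 1 in size with 1 sign in all experiments, and per role for the smallest p and the highest mean signal. Values of other members were chosen after being seen. Alternatives covered the block, offset, scaling, filter, trend, array weights, probe set kinds and left-out arrays.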

Additional observations from a re-analysis of the deposited data

How the results depend on the processing

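The median log2 fold change of the members, 0.33, kept its sign under 15 alternatives, at 0.091 to 0.65, and leaving out each experiment gave 0.19 to 0.51. Without a replicate block 7 members had an unadjusted limma p under 0.05, 6 of them among the 7 of the paired analysis, and 0 passed after adjustment. That count of 7 (17.1%, against 12.1% of all probe sets) became 11 with median centring (26.8%, against 15.9%), 2 with the less specific _x_at and _s_at kinds left out, where 16 member probe sets were left to test (12.5%, against 12%), and 4 to 7 when each experiment was left out. Without experiment 2 it was 4 (10.3%, against 9.96%), of which 3 (LTBP1, LTBP3 and TGFB1) were among the 7. With no trend it was 10 (24.4%, against 9.94%), with 3 lower (SKI and 2 of TGFB2). The count past the adjusted threshold was 0 except with array weights, where 1 passed, LTBP1 at a limma adjusted p of 0.0423, and its adjusted p ranged to 0.532 over 13 alternatives. The array weights were 0.386, 2.23 and 1.16 for experiments 1, 2 and 3, and 177 of all probe sets passed with them. Of 180 values of the 14 probe sets named by rule, 3 changed sign. TGFBR2 on 208944_at stood at 0.21 with median centring, and SMAD3 on 218284_at stood at -0.067 with quantile normalization and ranged from -0.22 to 0.27 when each experiment was left out; the cause was not tested. Dim signals limit what can be read for SMAD7, LTBP3, BMPR2 on 209920_at, SKI, TGFB2, BMP8B and the genes with no kept probe set.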
